A study of Mus musculus with 6 samples.

Results

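The genes described are the protein-coding histone genes of the mouse, taken by gene symbol: every symbol that starts with Hist1h, Hist2h, Hist3h or Hist4h (the clustered genes) and every symbol that starts with H2af or H3f3, with H1f0 and H1fx (the variant genes). This rule found 80 genes in GENCODE release M21, of which 67 were clustered and 13 variant. The count table held 28822 gene identifiers, 27005 of them with a symbol in that release, and 75 of the 80 histone genes were among them (65 clustered and 10 variant). The levels of H2afb1, H2afb2, H2afb3, Hist1h2aa and Hist2h2bb were not analysed here. These genes enter only the counts of stem-loops, promoters and gene pairs below. Another 9 names that fit the pattern belong to pseudogenes or antisense transcripts and were not counted as members. The group was chosen because of differences between BW723C86 and DMSO in these same libraries, so its values in that comparison are given as a description and not as a test of the group.

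The measurements were bulk RNA sequencing counts from 6 libraries, 3 from cultures given BW723C86, an agonist of the serotonin receptor 5-HT2B, and 3 from cultures given its solvent DMSO. All 6 came from a Transwell, a culture dish with a porous insert, in which HT22 cells (a mouse hippocampal neuronal line) had been placed below the insert after 2 h without oxygen and glucose. The series title names bone marrow-derived macrophages as the cells above the insert, whereas its design text also allows BV2 microglia, and the sample labels give macrophages and HT22 together. The sources used here do not give strain, sex, age, dose, treatment time or whether replicates were separate cultures or animals, so a call is measured against the spread among these 6 libraries, part of which may be technical.

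Histones package DNA: a nucleosome winds DNA around an octamer of H2A, H2B, H3 and H4, and a linker histone of the H1 family binds where the DNA enters and leaves. Most clustered genes are copied in S phase, have no intron, lie in dense groups, and give mRNAs that end in a conserved stem-loop bound by the protein SLBP in place of a poly(A) tail. Variant genes lie alone, are transcribed throughout the cell cycle, and give spliced or ordinary polyadenylated mRNAs. Resting and differentiating cells can also use poly(A) sites downstream of the stem-loop of some clustered genes. The libraries were made from RNA selected for poly(A), per the labels' protocols, so that stem-loop ends without a tail are recovered poorly and the counts below are of the clustered transcripts that this selection kept.

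The stem-loop was looked for in the annotated transcripts, because it marks clustered genes by sequence and not by level. The letters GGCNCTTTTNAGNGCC, on the transcript strand, were present in 42 of 67 clustered genes (62.7%), in 1 of 13 variant genes (7.69%) and in 2 of 21786 other protein-coding genes (0.00918%). The match was therefore far more frequent in clustered than in variant genes, but it did not separate the classes fully. The remaining clustered genes had no match in their annotated transcripts. Some of these transcripts are short, such as 393 bases for Hist1h2ai and 312 for Hist1h4k. A stem-loop beyond the annotated end could not be found by this search, so no match does not mean no stem-loop. H2afx, a variant known to make both kinds of mRNA end, was the 1 variant gene with a match. The form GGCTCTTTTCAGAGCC was the most frequent, in 26 genes. The stem-loops of 7 genes that recur below are printed with 5 bases on each side and the motif in capitals, 5′ to 3′, from the GENCODE M21 transcripts.
Hist1h1c: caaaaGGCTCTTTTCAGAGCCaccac
Hist1h1d: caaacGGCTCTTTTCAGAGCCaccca
Hist1h2bg: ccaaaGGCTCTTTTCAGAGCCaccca
Hist3h2a: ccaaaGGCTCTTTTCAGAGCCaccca
Hist1h4i: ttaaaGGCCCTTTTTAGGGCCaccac
Hist4h4: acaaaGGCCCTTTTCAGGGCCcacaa
H2afx: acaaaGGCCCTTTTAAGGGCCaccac
The annotated transcript goes on for 840 bases after the loop in Hist1h1c, 4884 in Hist1h1d, 1643 in Hist3h2a, 2445 in Hist4h4, 330 in Hist1h4i and 155 in Hist1h2bg. Hist1h2bc and Hist2h2be, among the clustered genes with the most counts, had no match in their annotated transcript.

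Summed over all 65 clustered genes, counts were about 2 times as high with BW723C86, whereas the summed variant genes were slightly lower. Levels are given in CPM, counts scaled by edgeR's TMM method to one common library size, as mean ± SD with n = 3 unless single libraries are listed. The clustered sum was 151, 141 and 146 CPM with DMSO and 291, 283 and 289 CPM with BW723C86. The means were 146 ± 5.05 and 288 ± 4.29 CPM (log2 ratio 0.98, ratio 1.97). The variant sum was 1624, 1619 and 1602 CPM with DMSO and 1487, 1553 and 1501 CPM with BW723C86 (1615 ± 11.3 against 1514 ± 34.8 CPM, log2 ratio -0.09). Neither sum overlapped between the groups. Within each library, which needs no scaling, the clustered sum was 9.06% of the variant sum with DMSO and 19% with BW723C86, a log2 change of 1.07. These sums include members below the expression filter and do not depend on how reads were divided among the members themselves. Near-identical sequence outside the sums, such as Gm20634 at the Hist2h2aa1 locus and Gm8203 for 25.9% of the windows of H2afz, could still have taken reads from them, which was not tested.

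Hist1h1c, which encodes the linker histone H1.2, carried more than any other clustered gene: 52.4% of the clustered counts with DMSO and 59.5% with BW723C86. Hist1h2bc, an H2B gene, carried a further 25.5% and 20.7%. Without Hist1h1c the clustered sum was 69.6 ± 1.36 CPM with DMSO and 116 ± 3.85 CPM with BW723C86 (log2 ratio 0.74). Without both genes it was 32.3 ± 0.285 and 56.9 ± 2.54 CPM (log2 ratio 0.82), so the higher clustered sum was present with and without its main contributors. Most other genes had few counts: 9 of the 65 averaged at least 1 CPM over the 6 libraries and 53 averaged under 0.5 CPM.

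**Figure D1:**
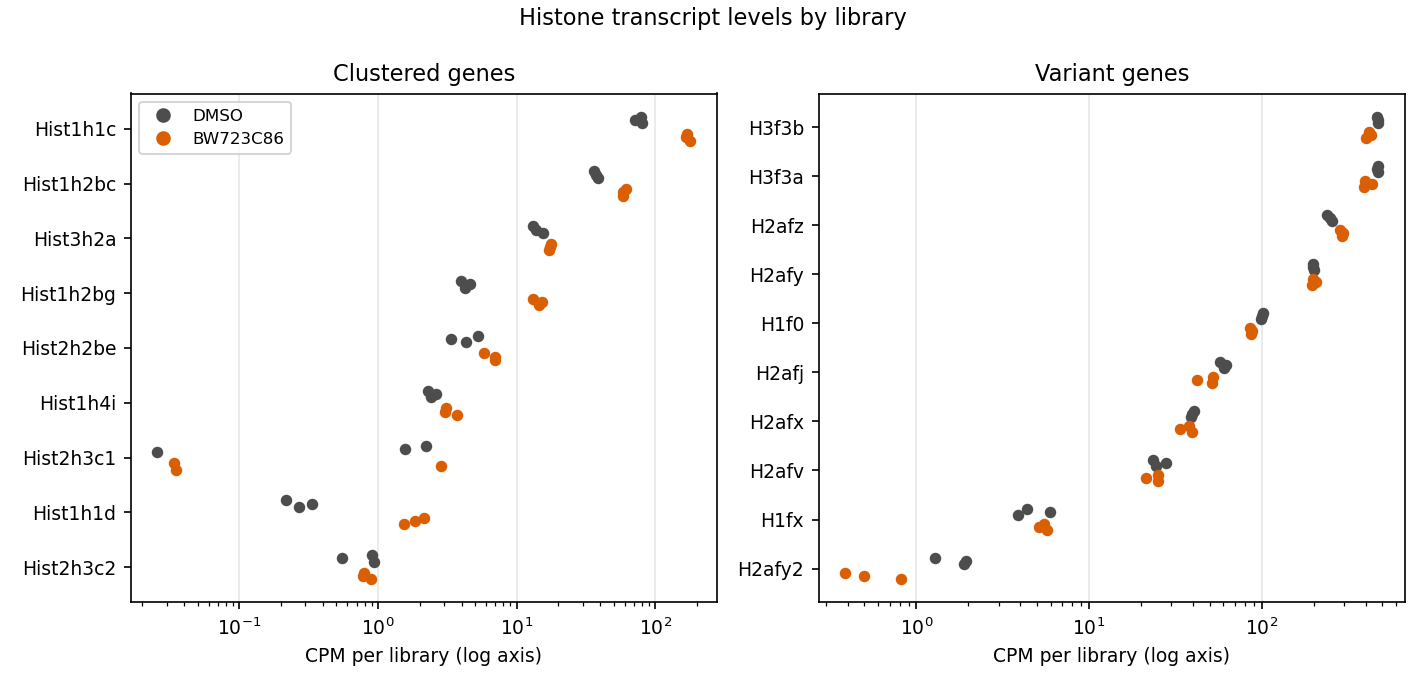
Level of clustered (left panel) and variant (right panel) histone genes in each library, in CPM on a log axis; every point is 1 library, with DMSO and BW723C86 in separate colours, and the clustered genes are 9 of the 10 with the highest mean (Hist2h2aa1, below the filter, is left out). The BW723C86 points of Hist1h1c, Hist1h2bc, Hist1h2bg and Hist1h1d lie to the right of all their DMSO points, and those of H3f3a, H3f3b, H1f0, H2afj and H2afy2 to the left.

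Of the 65 clustered genes, 25 had counts high enough to be tested (edgeR's filterByExpr, near 10 counts or 0.15 CPM in 3 libraries). Of these 25, 13 were higher with BW723C86 and none was lower at an adjusted p below 0.05 in edgeR's quasi-likelihood test over all 15567 tested genes, and 12 did not pass. Across all tested genes 21.3% were higher and 20.7% lower, 42% in all. Groups that did not overlap were also common, in 26.3% of all tested genes on the higher side and 26% on the lower. When libraries were scaled by their totals alone, 38.5% of the calls over all genes were higher in place of 50.8%, and the median of all genes moved from 0.00 to -0.07. At an unadjusted p below 0.05, edgeR and DESeq2 each gave 0 lower clustered genes. At an adjusted p below 0.05, DESeq2 gave 13 higher and 0 lower. Neither this count nor a median over the 25 can stand for the whole family, since 9 of them reached the filter level in all 3 BW723C86 libraries but not in all 3 DMSO libraries, and 7 of those 9 were among the 13. Of the 11 clustered genes that reached it in all libraries of both groups, 6 were higher and 5 did not pass the test. The median log2 change was 0.61 over these 11, 1.03 over the 25 and 0.00 over all tested genes. Without BW723C86 replicate 3 the count was 8, with counts divided by 4 it was 7, and with at least 1 CPM required in 3 libraries it was 6.

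By histone type, the clustered H1, H2A, H2B and H4 genes were higher as sums, and the clustered H3 genes were not. The 6 H1 genes summed to 77.2 ± 4.51 CPM with DMSO and 174 ± 5.9 CPM with BW723C86 (log2 change 1.17, SE 0.05, when the type was fitted as 1 feature). Hist1h1c alone held 76.7 and 171 CPM of these sums, so the H1 change is nearly that of 1 gene. The 17 H2B genes went from 47.3 ± 1 to 83.2 ± 0.527 CPM (0.81, SE 0.05), the 17 H2A genes from 15.5 ± 1.14 to 22.2 ± 4.15 CPM (0.52, SE 0.12) and the 13 H4 genes from 3.35 ± 0.338 to 5.59 ± 0.431 CPM (0.74, SE 0.14). The 12 H3 genes stood at 2.95 ± 1.14 and 3.05 ± 1.29 CPM (0.06, SE 0.34), with overlapping groups. Most of the H2A sum was Hist3h2a, at 14.1 CPM with DMSO and 17.3 CPM with BW723C86. Most of the H2B sum was Hist1h2bc, at 37.3 and 59.4 CPM. The H2A sum was 20.2, 19.4 and 27 CPM in the 3 BW723C86 libraries, and replicate 3 owed its higher value to Hist2h2aa1, described below. The ratio of clustered H3 counts to those of H3f3a and H3f3b was 0.315% with DMSO and 0.367% with BW723C86. Among the variant types, the H1 genes went from 105 ± 1.98 to 92 ± 0.688 CPM (-0.19, SE 0.04). The variant H3 genes went from 937 ± 2.99 to 822 ± 34.7 CPM (-0.19, SE 0.04). The 6 variant H2A genes stood at 573 ± 11 and 600 ± 1.47 CPM, without overlap but not past the threshold (0.07, SE 0.04).

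**Figure D2:**
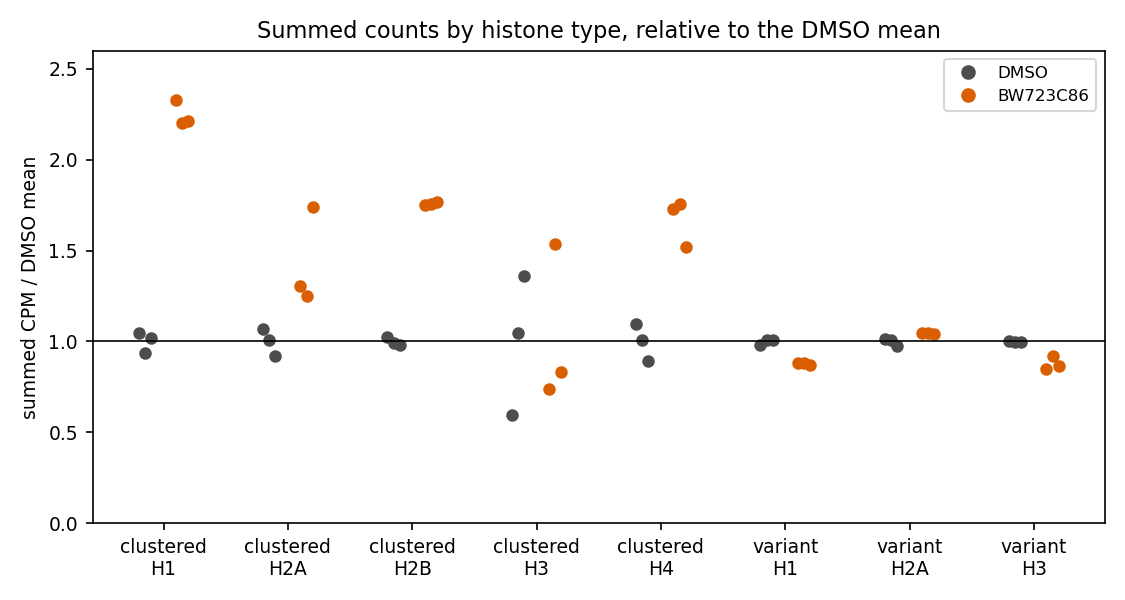
Summed CPM of each histone type in each library, divided by the mean of the DMSO libraries for that type; points are libraries and a value of 1 is the DMSO mean. Clustered H1, H2A, H2B and H4 lie above 1 in every BW723C86 library, clustered H3 overlaps between the groups, and variant H1 and H3 lie below 1. Variant H2A lies slightly above 1 in every BW723C86 library, without overlap.

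Among the linker histones, Hist1h1c and Hist1h1d rose while H1f0 fell. Hist1h1c (ENSMUSG00000036181, chromosome 13) was at 80.4, 71.6 and 78.2 CPM with DMSO and 178, 167 and 168 CPM with BW723C86, a log2 change of 1.16 (SE 0.05). H1f0 (ENSMUSG00000096210, chromosome 15) encodes H1.0, the linker histone that accumulates in cells that have left the cell cycle. It was at 98.6, 100 and 102 CPM with DMSO and 86.6, 87.4 and 85.8 CPM with BW723C86 (log2 change -0.21, SE 0.04). Neither gene overlapped between the groups. Per kilobase of annotated exon, the 2 genes were close with DMSO, at 49.2 CPM for Hist1h1c and 48.7 CPM for H1f0, and apart with BW723C86, at 110 and 42.1 CPM. The count ratio of Hist1h1c to H1f0 was 0.815, 0.715 and 0.77 with DMSO and 2.06, 1.92 and 1.96 with BW723C86.

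Hist1h1d, which encodes H1.3, had 21, 20 and 17 counts with DMSO and 89, 134 and 128 with BW723C86 (0.273 ± 0.0566 against 1.86 ± 0.305 CPM, log2 change 2.77, SE 0.31). This is a low gene whose annotated transcript is 7425 bases long, most of it after the stem-loop printed above. The other clustered H1 genes were near the limit of detection: Hist1h1e, which encodes H1.4, had 1 to 14 counts with DMSO and 1 to 33 with BW723C86 and did not pass (1.03, SE 0.96), and Hist1h1a, Hist1h1b and the testis-type Hist1h1t had at most 20 counts in any library. Hist1h1e shares 496 bases of the same strand with Hist1h2be, so reads there cannot be assigned with certainty. H1fx, a replication-independent H1, stood at 4.75 ± 1.08 against 5.43 ± 0.258 CPM, short of the threshold (0.20, SE 0.16).

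Of the H2B genes, Hist1h2bc and Hist1h2bg supplied most counts, and both rose. Hist1h2bc was at 38.3, 37.4 and 36.2 CPM with DMSO and 58.5, 58.7 and 61 CPM with BW723C86 (log2 change 0.67, SE 0.05). Hist1h2bg was at 4.21, 4.62 and 3.98 CPM and then 14.5, 15.1 and 13 CPM (1.73, SE 0.11). The 3 libraries within each group lay close together for both genes, and the groups were apart. Hist2h2be, an H2B gene of the chromosome 3 cluster, rose from 4.31 ± 0.917 to 6.59 ± 0.647 CPM (0.61, SE 0.16). Hist1h2bq and Hist1h2br, whose transcripts share 100% and 99.8% of their 150-base windows with other genes, had 5 to 12 counts with DMSO and 22 to 34 with BW723C86, and reads may have been moved between them. Both were at the filter level in all BW723C86 libraries but not in all DMSO libraries. The call of Hist1h2bq was lost without DMSO replicate 1, DMSO replicate 2, BW723C86 replicate 1 or BW723C86 replicate 3, and that of Hist1h2br was kept. Summed into 1 feature, they had 15, 12 and 17 counts with DMSO and 56, 46 and 66 with BW723C86 (log2 change 2.15, SE 0.42, higher). Hist1h2be (0.61, SE 0.36), Hist1h2bh (0.68, SE 0.57) and Hist3h2ba (-0.77, SE 1.01) did not pass.

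Of the H2A genes, Hist3h2a (chromosome 11) had the most counts and a small change. It was at 15.5, 13.8 and 13 CPM with DMSO and 17, 17.4 and 17.6 CPM with BW723C86, without overlap (log2 change 0.30, SE 0.09). Its call was lost without DMSO replicate 2, DMSO replicate 3 or BW723C86 replicate 3, and when libraries were scaled by their totals alone. Hist3h2a lies within the span of Trim17 on the same strand, and Trim17 had 0 to 52 counts. Hist1h2ac and Hist1h2ad, were at the filter level in all BW723C86 libraries but not in all DMSO libraries. Hist1h2ac rose from 2, 5 and 6 counts to 40, 31 and 29 (3.10, SE 0.62) and Hist1h2ad from 8, 6 and 4 counts to 21, 20 and 15 (1.81, SE 0.63). The call of Hist1h2ad was lost when any 1 of the 6 libraries was left out. Hist1h2ae, which starts 176 bases from Hist1h2bg on the other strand, had 28, 33 and 34 counts with DMSO and 32, 39 and 44 with BW723C86 and did not pass (0.46, SE 0.40).

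The H4 genes were low. The 3 that rose of 6 tested, Hist4h4, Hist1h4k and Hist1h4n, all reached the filter level in every BW723C86 library but not in every DMSO library, so their count supports nothing about H4 genes at large. Hist1h4i, with the most counts and the only H4 gene at the filter level in all 6 libraries, was at 2.42, 2.6 and 2.3 CPM and 3.68, 3.04 and 3.07 CPM, without overlap and not past the threshold (0.42, SE 0.17). Hist4h4 (chromosome 6) had no count in any DMSO library and 27, 42 and 16 counts with BW723C86 (0.442 ± 0.159 CPM). Against a floor of 3 counts in each DMSO library that is at least 10.4-fold higher. Hist1h4k had 22, 8 and 23 counts with DMSO and 21, 58 and 51 with BW723C86 (1.5, SE 0.50), without overlap once scaled to CPM, and its call was lost in 5 of the 6 fits that left out a library, the exception being BW723C86 replicate 1. Hist1h4n, at 4 counts in each DMSO library and 16, 21 and 22 with BW723C86 (2.45, SE 0.65), lost its call without BW723C86 replicate 3. It shares sequence with Hist1h4m, and summed the pair had 19, 7 and 10 counts against 37, 52 and 32 (1.94, SE 0.49, higher). Hist1h4h was among the 3 tested clustered genes with a negative change (-1.34, SE 0.84, not past).

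None of the 4 tested clustered H3 genes passed, and 2 of them lie at the chromosome 3 locus where copies are almost identical. Hist2h3c1 had 2, 95 and 173 counts with DMSO and 2, 206 and 2 with BW723C86 (-0.35, SE 2.01), so that DMSO replicate 1 and BW723C86 replicates 1 and 3 held 2 counts each while the other 3 libraries held most of the reads. All windows of Hist2h3c1 and 59.4% of those of Hist2h3c2 recur in other genes. Hist2h3c2 had 73, 33 and 70 counts with DMSO and 51, 56 and 47 with BW723C86 (0.04, SE 0.32). Summing the Hist2h3 copies left 75, 130 and 246 counts against 55, 262 and 49 (-0.20, SE 0.76). The sign of both single genes turned when some libraries were left out: Hist2h3c1 ran from -5.15 without BW723C86 replicate 2 to 0.34 without DMSO replicate 3, and Hist2h3c2 at -0.17 without DMSO replicate 2. Hist1h3d (0.57, SE 0.51) and Hist1h3e (1.65, SE 0.67) did not pass either.

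The H2A gene Hist2h2aa1 of the same locus showed the same scatter, with 7, 0 and 0 counts with DMSO and 67, 0 and 379 with BW723C86, and stayed below the filter. Its copy Hist2h2aa2 had 15 counts in BW723C86 replicate 2 and none elsewhere, and the pair summed did not pass. BW723C86 replicate 3 holds the 379 counts, and the 40 untested clustered genes summed to 10 CPM there. In BW723C86 replicates 1 and 2 they summed to 3.7 and 2.65 CPM, and with DMSO to 1.75, 2.4 and 1.88 CPM, so the groups did not overlap. An annotated noncoding transcript of the same strand, Gm20634, spans Hist2h3c1 and overlaps Hist2h2aa1, and it held 422, 88 and 126 counts with DMSO and 545, 345 and 393 with BW723C86. Taking these 3 genes together, counts were 431, 183 and 299 with DMSO and 614, 551 and 774 with BW723C86, that is 4.14 ± 1.28 against 10.5 ± 2.71 CPM without overlap. Gm20634 and this sum were chosen after their values were seen. How reads were assigned among these overlapping genes was not tested.

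The 40 clustered genes below the filter had 0 to 379 counts, with a median of 3, and 37 of them averaged at most 10 counts in both groups. Their mean was higher with BW723C86 in 24 and lower in 16, and 2 had groups that did not overlap. Over all tested genes, which have more counts, the groups did not overlap in 26.3% (higher) and 26% (lower). At 0 in every DMSO library were 4 clustered genes: Hist4h4, Hist2h2aa2, Hist1h2bm with 8, 1 and 11 counts with BW723C86, and Hist2h4 with 4, 12 and 0. In each library 51 to 57 of the 65 clustered genes had a count. Depth was alike in the groups, with 58841307 to 75931615 counts per library, of which the histone members held 0.17% to 0.182%, and 3 counts corresponded to 0.0385 to 0.0523 CPM. These floors cover counting error only, and since low values pile up at multiples of 4 (4613 values of 4 against 2904 of 3 and 2552 of 5), what a single count is worth is uncertain.

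**Figure D3:**
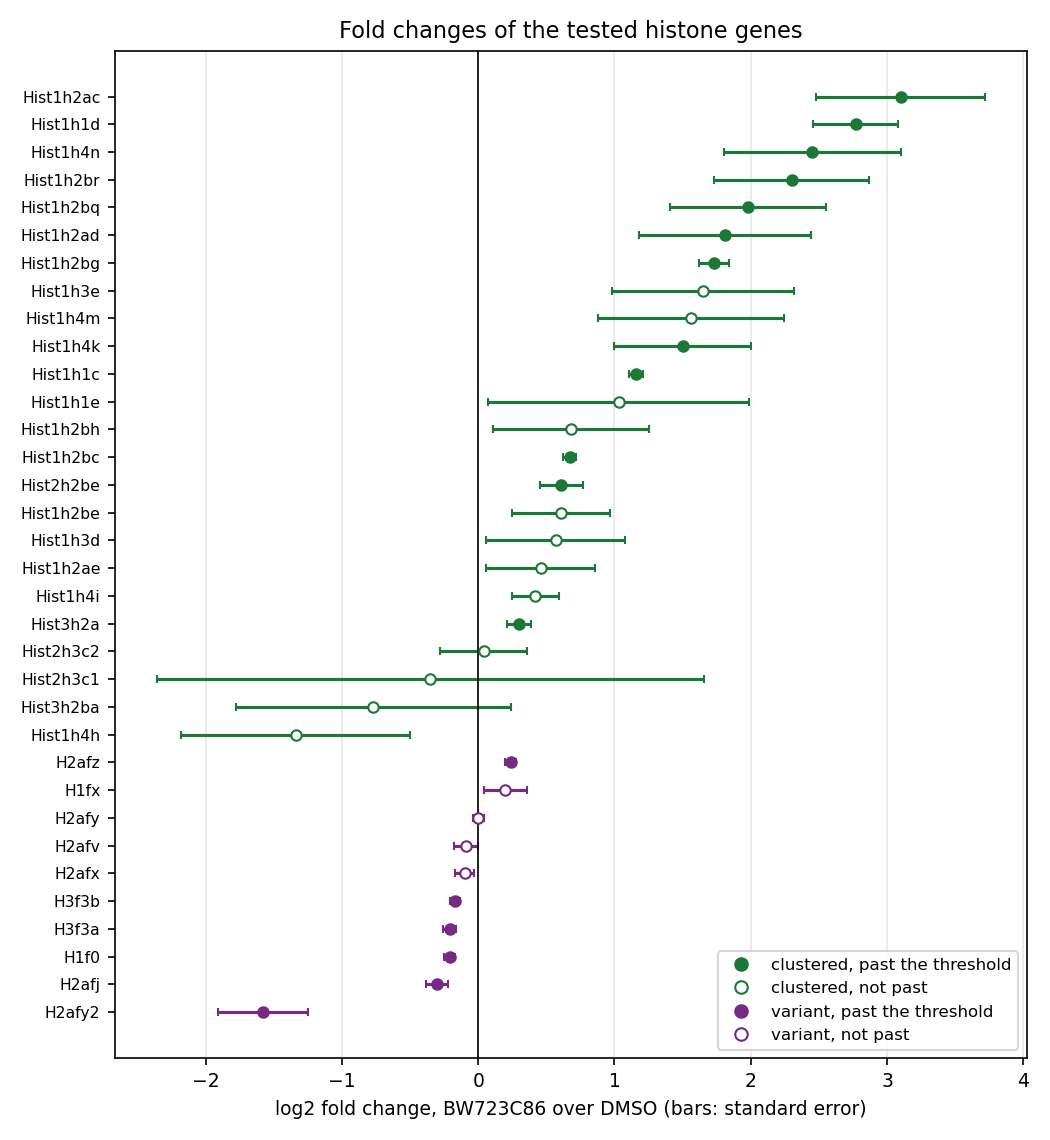
Log2 change with its standard error for 34 tested histone genes, BW723C86 over DMSO, clustered and variant genes in separate blocks; filled points passed an adjusted p below 0.05 and open points did not. Hist4h4, at 0 in all DMSO libraries, is not drawn. The filled clustered points lie right of 0, from 0.30 for Hist3h2a to 3.10 for Hist1h2ac. Of the filled variant points, H2afz lies right of 0, at 0.24, and the others lie left of 0.

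All 10 variant genes in the table were tested, and all passed the filter in both groups. H2afz rose, and H3f3a, H3f3b, H1f0, H2afj and H2afy2 fell, while H2afy, H2afx, H2afv and H1fx did not pass. That is 10% higher and 50% lower, beside 21.3% and 20.7% over all tested genes. The median log2 change was -0.14. These calls held in each alternative fit, and H2afx was also lower when libraries were scaled by their totals alone (-0.17, against -0.10 with TMM scaling, SE 0.07).

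H3f3a and H3f3b both encode H3.3, the replacement H3 that is laid down outside S phase, and together they made up 58% of the variant counts with DMSO and 54.3% with BW723C86. H3f3a (chromosome 1) was at 471, 463 and 469 CPM with DMSO and 390, 433 and 395 CPM with BW723C86 (log2 change -0.21, SE 0.05). H3f3b (chromosome 11) was at 469, 472 and 467 CPM and 404, 428 and 417 CPM (-0.17, SE 0.04). Both genes were lower in every BW723C86 library than in any DMSO library, with replicate 2 of BW723C86 nearest to the controls. Their count ratio barely moved, at 0.997 ± 0.0127 and 0.974 ± 0.0328.

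The H2A variants did not move together. H2afz encodes H2A.Z, found at promoters and enhancers, and was at 254, 247 and 238 CPM with DMSO and 290, 295 and 285 CPM with BW723C86 (log2 change 0.24, SE 0.04). H2afj encodes H2A.J and was at 60.4, 62.5 and 57.4 CPM and 51.6, 42.1 and 52.4 CPM (-0.30, SE 0.08). Neither overlapped between the groups, and the ratio of H2afz to H2afj counts was 4.1 ± 0.139 with DMSO and 6.03 ± 0.867 with BW723C86. H2afy2, which encodes macroH2A2, had the largest fall among the variants, from 1.88, 1.94 and 1.28 CPM to 0.819, 0.5 and 0.388 CPM (-1.58, SE 0.33). It is a low gene that shares 596 bases on the opposite strand with Aifm2, at 48.8 ± 1.84 and 37.3 ± 2.69 CPM and also lower, and the sources used here do not say whether reads were counted by strand. H2afy, which encodes macroH2A1, stood at 200 ± 1.17 and 200 ± 6.54 CPM (0.00, SE 0.04). H2afx, the variant phosphorylated at DNA breaks, was at 39.5 ± 0.877 and 37 ± 2.88 CPM, and H2afv (H2A.V) was at 25.3 ± 2.27 and 23.8 ± 2.18 CPM (-0.09, SE 0.09).

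Sequence features were set beside the levels without a test. Among the clustered genes in the table, the 17 whose annotated transcript runs at least 200 bases past the stem-loop had a median level of 0.357 CPM, and 13 of them were tested. The 25 with a stem-loop and a shorter end had a median of 0.106 CPM, with 7 tested, and the 23 with no match had 0.0623 CPM, with 5 tested. Called higher in these classes were 5 of 13, 3 of 7 and 5 of 5 tested genes, beside 21.3% over all tested genes. Since the filter shaped which low genes were tested, these counts support nothing about the classes. A poly(A) signal (AATAAA) lay in the last 60 bases of the annotated transcript in 14 clustered genes, whose median level was 0.249 CPM with 9 tested, against 0.0943 CPM and 16 tested among the 51 others. The limit of 200 bases was chosen after values were seen, and these CPM are not divided by transcript length.

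Sequence shared between copies limits what single members can show. Of the 65 clustered genes, 52 shared at least 1 window of 150 bases with another annotated gene, and the median gene shared 24.5% of its windows. Hist1h1c, Hist1h1d and Hist2h2be were among the genes that shared none, so their counts are the least open to exchange between copies, while Hist1h2bc shared 17.4% and Hist1h2bg 39%. All 3 rose.

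**Figure D4:**
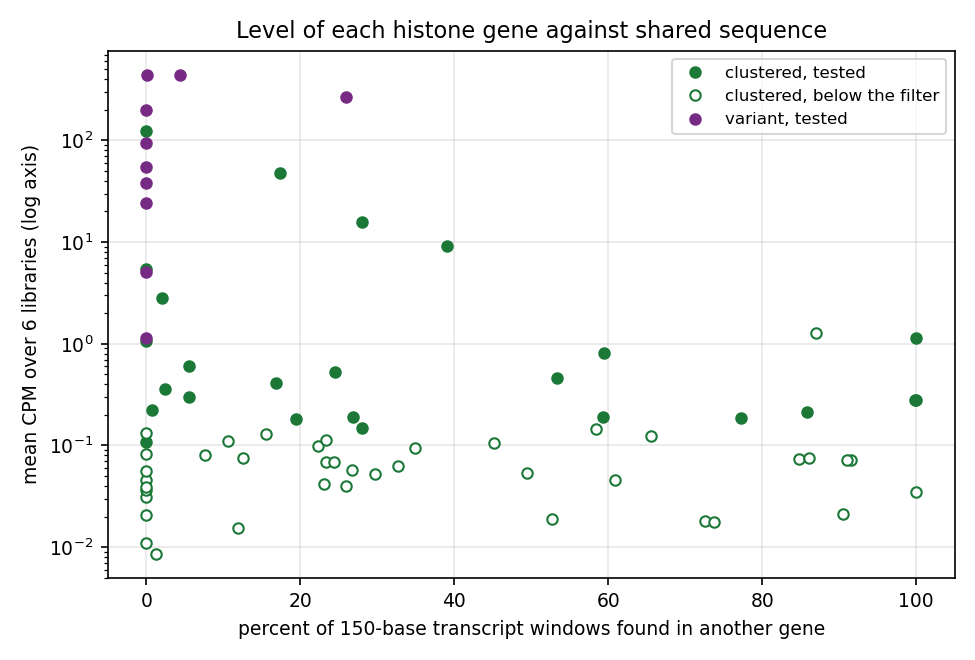
Mean level over the 6 libraries (CPM, log axis) of each clustered (green) and variant (purple) gene against the percentage of its 150-base transcript windows that also occur in another annotated gene; each point is 1 gene, open where it lay below the filter. Hist1h1c, the highest green point, lies at 0%, and Hist2h3c1 and Hist2h2aa1 are the green points above 1 CPM near 100% and 87%.

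The promoters of 74 of the 80 genes were matched in RefSeq (GRCm38.p6), as 75 entries because Hist1h2be had a further one. H2afx, Hist1h2bc, Hist1h3a, Hist1h3f, Hist2h2be and Hist2h4 had no entry. The 150 bases before the start are printed, 5′ to 3′ on the gene's strand, for 3 clustered genes that rose by over 1 on the log2 scale in the H1 and H2B families, for the partner of Hist1h2bc, and for H1f0, which fell. Capitals mark matches on either strand to ATTTGCAT (the octamer bound by OCT1), to TATAAA (a form of the TATA box), to CCAAT (bound by NF-Y) or to AAACACA (the H1 box).
Hist1h1c, chr13:23738657-23738806, plus strand: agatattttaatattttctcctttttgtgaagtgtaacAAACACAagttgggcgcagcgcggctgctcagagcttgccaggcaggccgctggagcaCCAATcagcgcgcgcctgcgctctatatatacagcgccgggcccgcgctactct
Hist1h1d, chr13:23554882-23555031, plus strand: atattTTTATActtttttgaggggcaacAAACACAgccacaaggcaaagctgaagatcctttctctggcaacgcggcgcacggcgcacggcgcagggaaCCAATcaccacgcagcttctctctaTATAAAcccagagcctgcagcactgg
Hist1h2ac, chr13:23683960-23684109, minus strand: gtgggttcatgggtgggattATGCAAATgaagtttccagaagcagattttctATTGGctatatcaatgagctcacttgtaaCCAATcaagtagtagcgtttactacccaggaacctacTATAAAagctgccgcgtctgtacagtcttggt
Hist1h2bg, chr13:23571250-23571399, plus strand: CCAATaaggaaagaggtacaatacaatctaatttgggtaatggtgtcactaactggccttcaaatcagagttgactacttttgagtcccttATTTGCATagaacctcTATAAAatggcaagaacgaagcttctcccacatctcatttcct
H1f0, chr15:79028062-79028211, plus strand: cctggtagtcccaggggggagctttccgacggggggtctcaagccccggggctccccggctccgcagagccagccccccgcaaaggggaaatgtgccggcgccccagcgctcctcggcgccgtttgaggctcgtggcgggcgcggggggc
Hist1h1c and Hist1h1d both held an H1 box and a CCAAT box. Hist1h2ac and Hist1h2bg both held an octamer, a CCAAT box and a TATAAA match, and H1f0 held none of the 4. These examples do not stand for all genes that rose or fell. H3f3b, which fell, also held an octamer, a CCAAT box and a TATAAA match. H3f3a and H2afj, which fell, and Hist1h2bq and Hist1h2br, which rose, held CCAAT alone. The variant promoters include those of H2afb1, H2afb2 and H2afb3, which all held CCAAT. Across promoters, CCAAT was found in 82.5% of the 63 clustered, 66.7% of the 12 variant and 24.4% of 32776 other promoters. All 17 H2B promoters held it. The octamer was found in 17.5%, 8.33% and 0.964%, and in 35.3% of the H2B promoters. The H1 box was found in 12.7%, 0% and 3.51%, and in 62.5% of the 8 H1 promoters. TATAAA was found in 38.1%, 8.33% and 7.51%. These are letter matches and describe the promoters only.

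Many clustered genes lie head to head, and most of these pairs had an untested member. There were 13 pairs of clustered genes on opposite strands whose starts lay 176 to 660 bases apart, and 12 of them joined an H2A to an H2B gene. Both members were tested in 2 pairs. Hist1h2ac and Hist1h2bc, 251 bases apart, both rose, while of Hist1h2ae and Hist1h2bg only the latter passed, and the difference between partners was not tested. A clustered and a variant gene are neighbours on chromosome 6, where Hist4h4 and H2afj start 3829 bases apart on opposite strands. Hist4h4 was higher and H2afj lower.

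Of 21 tested genes for histone transcription and mRNA 3′ end processing, 2 were higher (9.52%), 8 were lower (38.1%) and 11 did not pass, with a median log2 change of -0.08. Over all tested genes 21.3% were higher and 20.7% lower. Npat, the coactivator of the clustered genes, fell from 18.2 ± 1.62 to 14.8 ± 1.09 CPM (-0.30, SE 0.09). Casp8ap2 (-0.56, SE 0.09), a partner of NPAT, the CCAAT-binding subunit Nfyb (-0.46, SE 0.08), the decay helicase Upf1 (-0.45, SE 0.06) and the cleavage factor subunit Cpsf2 (-0.41, SE 0.06) also fell, and Sympk (0.20, SE 0.05) and Nfya (0.16, SE 0.05) rose. Slbp, the stem-loop binding protein, stood at 40.3 ± 0.815 against 36.3 ± 2.89 CPM, a log2 change of -0.15 (SE 0.07) that missed the threshold.

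Of 30 tested histone chaperones and exchange factors, 6 were higher (20%), 10 lower (33.3%) and 14 not past, with a median of 0.01. The share that was higher is near the 21.3% over all tested genes. The higher ones included Cabin1 of the HIRA complex, which lays down H3.3, from 70.8 ± 1.99 to 109 ± 4.52 CPM (0.62, SE 0.05), the S phase factors Chaf1b (0.48, SE 0.07) and Asf1b (0.29, SE 0.06), and Hjurp, which loads CENP-A (0.30, SE 0.06). The lower ones included Npm1, from 300 ± 8.97 to 178 ± 10.7 CPM (-0.75, SE 0.05), Nap1l1, from 245 ± 0.979 to 154 ± 3.21 CPM (-0.67, SE 0.04), Npm3 (-0.55, SE 0.08) and Set (-0.32, SE 0.05). Hira itself did not pass (0.04, SE 0.06).

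Since clustered histone genes are normally tied to S phase, cell cycle genes were set beside them. Of 28 DNA replication genes, 7 were higher (25%), 4 lower (14.3%) and 17 not past (median 0.06). Fen1 rose from 41.1 ± 1.52 to 60.3 ± 4.46 CPM and Rrm2 from 32.4 ± 1.27 to 46 ± 2.19 CPM. Cdc45 (0.40, SE 0.09), Ccne1 (0.26, SE 0.07), Uhrf1 (0.25, SE 0.07), Pcna (0.16, SE 0.05) and Rrm1 (0.15, SE 0.05) also rose. Mcm2 (-0.24, SE 0.05), Mcm6 (-0.17, SE 0.05), Pola1 (-0.47, SE 0.11) and Ccne2 (-0.39, SE 0.11) fell. Of 20 mitosis genes, 11 were higher (55%), 2 lower (10%) and 7 not past (median 0.24), beside 21.3% higher and 20.7% lower over all tested genes. Cenpa, the centromeric H3 variant, which the symbol rule does not take in, rose from 18.7 ± 0.414 to 29.3 ± 0.916 CPM (0.64, SE 0.07), whereas the proliferation marker Mki67 fell from 92.6 ± 4.54 to 59.2 ± 1.74 CPM (-0.64, SE 0.05). In bulk RNA, a different number of cells in S phase and a different amount of histone RNA per cell cannot be told apart.

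The part played by tailless RNA and by other cells was not tested, and these are the values. Of 14 RNAs that carry no poly(A) tail, 6 were in the table, 5 of them at 0 in all libraries, and the remaining one, Rpph1, had 4, 13 and 4 counts with DMSO and 15, 13 and 4 with BW723C86 (not past). All 10 macrophage markers were tested, 4 higher and 3 lower, with a summed level of 37228 to 38077 CPM with DMSO and 32707 to 33915 CPM with BW723C86. All 7 tested of 10 neutrophil markers were lower, at 2572 to 2650 and 701 to 806 CPM, with none of the 10 at 0, and 5 of 7 tested of 10 lymphocyte markers were lower, at 16.8 to 20.9 and 9.62 to 11.1 CPM. Of 10 neuronal markers 7 were in the table: Map2, Nefl and Dcx were at 0 and Syn1 was higher (7.59 ± 0.647 against 19 ± 0.717 CPM), and the sum was 7.06 to 8.4 and 18.8 to 20.2 CPM. None of the tested fibroblast (3 of 8) or erythroid (4 of 8) markers passed, and their sums were 2.13 to 2.73 and 1.26 to 2.62 CPM, and 1.8 to 2.07 and 2.11 to 2.54 CPM. Beside all these marker counts stand the shares over all tested genes, 21.3% higher and 20.7% lower.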

How the data were processed

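The authors deposited a table of estimated counts per gene for 6 libraries. The tools named in the submitters' processing notes are HISAT2, StringTie, fastp and edgeR, and the builds are GRCh38 and GRCm39. The sources used here give neither versions nor roles, nor the strand setting of the counting. Per the labels' protocols, RNA was selected for poly(A) with oligo(dT), strand-marked with dUTP and sequenced as paired ends. The deposited expected counts were whole numbers, so rounding changed none, and no column was left unused.

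Gene symbols, transcripts, lengths and neighbours came from GENCODE release M21 (GRCm38), another build than the one named, and promoters from RefSeq. Per-gene differences were fitted on the whole table with edgeR 4.0.16 in R 4.3.3 (quasi-likelihood F test, robust, two-sided, TMM scaling, filterByExpr, Benjamini-Hochberg over 15567 genes, threshold 0.05, all 6 libraries, no block); the method was tested on simulated data. CPM use the same scaling, and SE is of the log2 change, BW723C86 over DMSO. Total counts ran from 58841307 to 75931615, so that 3 counts were 0.0385 to 0.0523 CPM.

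The members and gene lists were chosen with earlier results of these data known. The naming rule was the 10 clustered genes with the highest mean, the 4 called clustered genes with the largest change in each direction at a mean of at least 1 CPM, every tested variant gene, and up to 4 genes of smallest p per list and direction. Hist4h4, the remaining clustered genes with values, Npat, Slbp, Hira, Syn1, Gm20634, Gm20632 and the other genes outside that rule were named after their values were seen.

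Alternatives were DESeq2 1.42.0, its size factors, library totals, 2 other filters, counts divided by 4, a fit without robust estimation, a block on the replicate number, each library left out, other ways of summing members, and, added after seeing the data, near-identical copies or whole histone types summed. The replicate numbers do not pair the samples in the labels.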

Additional observations from a re-analysis of the deposited data

How the results depend on the processing

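The number of clustered genes higher with BW723C86, 13, was 12 with library totals alone, with no filter or with copies summed, 6 with at least 1 CPM in 3 libraries, 7 with counts divided by 4, and 8 to 12 when 1 library was left out (8 without BW723C86 replicate 3); the 1 CPM filter tests fewer members. The summed clustered log2 ratio, 0.98, was 0.90 with library totals, 0.74 without Hist1h1c, 1.02 with the 25 tested members weighted equally, a value that the filter tilts upward since 9 of them reached it in all BW723C86 but not all DMSO libraries, and 0.95 to 1.00 when 1 library was left out. The summed variant log2 ratio, -0.09, was -0.17 with library totals, -0.06 without H3f3b and -0.13 to -0.08 when 1 library was left out. The log2 change of the clustered to variant ratio, 1.07, was 0.83 without Hist1h1c and 1.24 with equal weights, which share that tilt. No clustered gene was called lower in any fit. No sum or ratio and no called gene changed sign, but with 1 library left out Hist2h3c1, at -0.35, ran from -5.15 to 0.34 and Hist2h3c2, at 0.04, from -0.17 to 0.17 (-0.04 with library totals), neither past the threshold in any fit. Of the 35 tested members, 7 changed side of the threshold and 2 changed direction in at least 1 fit that tested them. Only 17 had a value in every fit, since stricter filters and summed copies drop low genes. Of the 12 called members among these, 11 kept their call throughout, the exception being Hist3h2a. With the replicate number as a block, the clustered count was 11, since Hist1h4k (1.47) and Hist1h2ad (1.83) no longer passed, and calls over all genes went from 6534 to 6179. Samples of the same number did not deviate together (correlations 0.031, -0.0247 and -0.00481), so the numbers were not taken as pairs. The 40 untested clustered genes lay below the filter of the main fit, so no call is given for any of them.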

Other observations

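An antisense gene at the chromosome 3 histone locus was also higher with BW723C86. Gm20632, which overlaps Hist2h2aa2 over 528 bases on the opposite strand, had 349, 330 and 401 counts with DMSO and 635, 794 and 680 with BW723C86, a rise from 5.04 ± 0.5 to 11.2 ± 0.248 CPM (log2 change 1.15, SE 0.11, n = 3). Its neighbour Gm20633, antisense to Hist2h2aa1, had 69, 249 and 268 counts with DMSO and 130, 474 and 75 with BW723C86 and did not pass. Hist2h2aa2 itself held 15 counts in all. The counts of Gm20632 are for the whole gene, and where within it the reads lie, and on which strand, was not measured here. Of the 75 histone genes in the table, 14 overlapped another gene of the table, 10 of them on the opposite strand.

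The pseudogene copies of the H3.3 genes did not pass the test where their parents H3f3a and H3f3b were lower. H3f3c had 121, 90 and 128 counts with DMSO and 87, 104 and 96 with BW723C86 (log2 change -0.04, SE 0.21), and H3f3a-ps1 had 72, 35 and 80 against 38, 58 and 32 (-0.34, SE 0.34). The standard errors are wide enough to hold the changes of the parents, and the difference between parents and copies was not tested.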
